A study of Mus musculus with 9 samples.

Results

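The comparison described here set mouse 6DT1 cells carrying the Resf1 shRNA H6 (shH6) directly against the same cells carrying the Resf1 shRNA H4 (shH4), and covered all 5301 genes listed in the table, with 3 of the 9 RNA-seq libraries in each KD group. 6DT1 is a mammary tumor cell line that came from an MMTV-Myc tumor, in which a mammary tumor virus promoter drives a Myc transgene, and it is syngeneic to FVB/NJ mice. The cells of all groups were stably transduced with a lentiviral hairpin vector; the remaining 3 libraries, from cells with a scramble hairpin (shControl), entered the fit and are given as the background level. Each hairpin was represented by a single transduced line whose 3 libraries came from separate dishes, so the hairpin and the line cannot be told apart and the p-values measure the spread between dishes. All 5301 genes lay on the same side of shControl in both KD lines; the rule by which the table was selected is not given in the sources used here, and genes outside it were not analysed here.

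RESF1 is a large nuclear protein that is known to bind the histone methyltransferase SETDB1, an enzyme that places H3K9me3 and silences endogenous retroviruses. A hairpin is processed into a short guide strand, which Argonaute uses to pair with a complementary site and cleave that transcript. Guide bases 2 to 8, the seed, can also pair with short matches in the 3′ UTR of other transcripts, as in miRNAs, so that 2 hairpins against a single gene need not leave the same transcriptome behind.

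The sequences of both guides are shown because they are the designed difference between the lines, with the seed in capitals in the guide and its complement in capitals in the target.
H4 guide: tTTCGATTtgtaacataggtc
H4 target: gacctatgttacaAATCGAAa
H6 guide: aAACAACCaagttacctcagg
H6 target: cctgaggtaacttGGTTGTTt
The H4 target lies on the plus strand at chr6:149327436-149327456 (GRCm38), in the coding sequence of Resf1 exon 3, and was found in 5 of its 11 annotated transcripts. The H6 target lies at chr6:149335414-149335434, in the 3′ UTR in exon 5, and was found in 2 of the 11 transcripts. The 2 guides carried the same base at 2 of their 21 positions. Outside Resf1, the longest stretch complementary to either guide in the annotated transcripts of the 5258 listed genes that could be searched was 13 bases for each guide.

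Resf1 (ENSMUSG00000032712), the targeted gene, was lower in every KD library than in every shControl library, and it was somewhat less depleted by H6 than by H4. Resf1 was at 976, 953 and 1016 normalized counts in the shH4 libraries and at 1120.0, 1113 and 1130.2 in the shH6 libraries, against 1591, 1553 and 1610.0 in shControl. The KD lines did not overlap. The log2 difference was 0.19 (SE 0.043, limma adjusted p = 0.00984), which is a 1.14-fold higher level in shH6, and the adjusted p-value ran from 0.00271 to 0.0426 over 18 alternative settings. Setdb1, whose product partners RESF1, was at 2373, 2262 and 2310.2 in shH4 and 2296, 2267 and 2361 in shH6, and these ranges overlapped. The 95% interval of the Setdb1 difference ran from −0.084 to 0.075 on the log2 scale. Myc, the oncogene that drove the parent tumor, was at 8481, 9205 and 9249 in shH4 and 8911, 8792 and 10349.8 in shH6, with an interval from −0.072 to 0.18.

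The 6 KD libraries held from 10.5 M to 17.3 M estimated reads over the listed genes, and the median coefficient of variation between libraries was 4.29% in shH4 and 4.55% in shH6. In a principal component analysis of these libraries the first component held 44.2% of the variance and separated the lines, while the second, with 18.9%, set shH6 replicate 3 apart from the other two shH6 libraries. That library also had the lowest weight in a fit with library weights, 0.39, whereas shH6 replicate 1 had the highest, 3.57.

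The number of genes that separated the lines was determined next. The limma adjusted p-value fell under 0.05 for 438 of the 5301 genes (8.26%), of which 206 (3.89%) were higher in shH6 and 232 (4.38%) were lower. Scaling to equal column totals gave 263 higher and 191 lower, and scaling without the identifier that held the most reads gave 217 and 221, so the balance between the directions depended on the scaling. In 434 of the 438 called genes the shH6 and shH4 libraries did not overlap, against 24.8% of all listed genes. The differences in the table were small: a called gene differed by a median of 1.2-fold and the median over all listed genes was 1.05-fold. Genes with shControl between the lines were not in the table, so these values hold for the listed genes only. A difference of less than 1.2-fold was found for 217 called genes, 1.2 to 1.5-fold for 167, 1.5 to 2-fold for 36 and more than 2-fold for 18. Among the 54 genes over 1.5-fold, 24 were higher in shH6 and 30 lower. Without shH6 replicate 3, 397 genes were called, 334 of them in common with the full set, and the number was 287 without shH6 replicate 1 and 290 without shH4 replicate 1. In all, 198 of the 438 genes (93 higher and 105 lower) were called in the same direction in each of the 18 alternatives, with a median difference of 0.35 on the log2 scale.

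**Figure D1:**
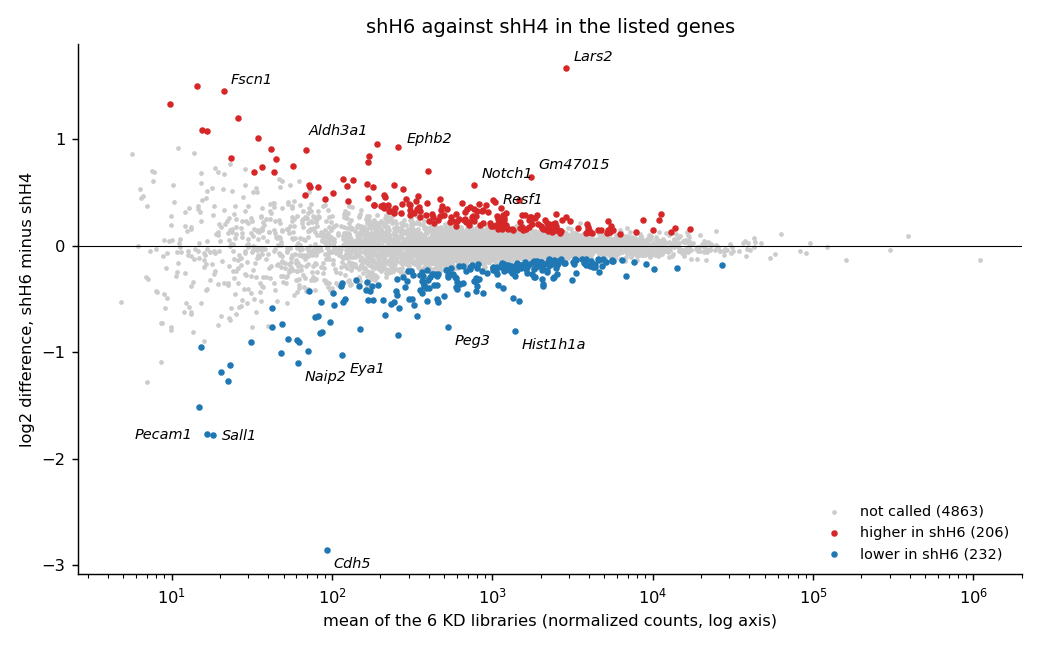
Fitted log2 difference between shH6 and shH4 (vertical axis) against the mean normalized count of the 6 KD libraries (horizontal log axis) for the 5301 listed genes. Red and blue points are the 206 genes called higher and the 232 called lower in shH6, and Cdh5 lies lowest at −2.86.

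In what follows, values on either side of the word against are those of the 3 shH4 and then the 3 shH6 libraries, and a value in brackets with no other name is the log2 difference, shH6 minus shH4. Among called genes with a mean of at least 50 in the KD libraries, Cdh5, Naip2 and Eya1 had the widest differences below 0. Cdh5 (ENSMUSG00000031871), VE-cadherin of endothelial adherens junctions, was at 148, 157 and 184 normalized counts in shH4 and at 19.1, 19.9 and 26.2 in shH6, 7.24-fold lower in shH6 (log2 difference −2.86, SE 0.22, limma adjusted p = 6.31e-07). In shControl it was at 24.6, 14.2 and 25.5, so that the shH4 libraries stood alone while the highest shH6 library lay just above the highest shControl library. Naip2, a cytosolic sensor of bacterial secretion systems, was at 83.7, 83.5 and 83.1 in shH4, 46.7, 38.8 and 31.2 in shH6 and 304, 316 and 284 in shControl, and was thus lowest in shH6 (log2 difference −1.10, SE 0.14, limma adjusted p = 8e-05). It belongs to a family of near-identical genes among which reads could have been split. Eya1, a phosphatase and coactivator that works with sine oculis homeobox factors, was at 159.7, 156 and 147 in shH4 and 62.7, 71.4 and 94.8 in shH6, with shControl at 48.5, 52.2 and 57.6 (log2 difference −1.03, SE 0.15, limma adjusted p = 0.000348).

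Slc40a1, the iron exporter ferroportin, was at 72.9, 70.3 and 91.9 in shH4 and 51.3, 47.2 and 29.9 in shH6 (log2 difference −0.88, SE 0.18, limma adjusted p = 0.00535). P2rx7, an ATP-gated cation channel, was at 102, 125 and 103 against 67.3, 73.4 and 48.6 (−0.81, SE 0.15, limma adjusted p = 0.00251). Mmp1a, an interstitial collagenase, was at 71.9, 79.7 and 90.5 in shH4 and 55.8, 48.3 and 28.7 in shH6 (−0.90, SE 0.21, limma adjusted p = 0.0116). Its lowest value was in shH6 replicate 3, and without shH4 replicate 3 its adjusted p-value was 0.0641. Iqgap2, a scaffold of actin regulators, was 1.83-fold lower (71.9, 68.1 and 65.5 against 32.9, 40.9 and 37.4) and Enpp5, a member of the ectonucleotide pyrophosphatase family, was 1.77-fold lower (97.6, 104 and 119 against 52.02, 65.1 and 63.6). In both of these genes all shH4 libraries were above all shH6 libraries and below all shControl libraries. The galectin-like gene Lgalsl was 1.72-fold lower in shH6, and the uncharacterised genes 4930486L24Rik and 3830417A13Rik were 1.98-fold and 1.79-fold lower.

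Hist1h1a, which codes for a linker histone, had the lowest adjusted p-value of the genes named in this comparison. It was at 1763, 1819 and 1677 in shH4, 1056, 1022 and 943 in shH6 and 592, 563 and 615 in shControl (log2 difference −0.80, SE 0.054, limma adjusted p = 2.61e-07). The 3 groups did not overlap, with shH6 between the others. Peg3, an imprinted zinc finger gene that was named after its values were seen, came next after the 12 genes named, at 632, 655 and 695 in shH4 and 368, 412 and 388 in shH6 (−0.76, SE 0.066, limma adjusted p = 3.82e-06).

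The genes that were higher in shH6 included receptors, matricellular proteins and enzymes. Aldh3a1 (ENSMUSG00000019102), an aldehyde dehydrogenase of xenobiotic defence, was at 117, 146 and 125 normalized counts in shH4, 235, 269.7 and 249 in shH6 and 342, 351 and 302 in shControl, 1.94-fold higher in shH6 than in shH4 (log2 difference 0.95, SE 0.098, limma adjusted p = 1.55e-05). Ephb2, a receptor tyrosine kinase for membrane-bound ephrin-B ligands, was at 183, 163 and 184 in shH4, 324, 326 and 363 in shH6 and 138, 154 and 133 in shControl (0.93, SE 0.093, limma adjusted p = 1.23e-05). All 3 shH6 libraries of Ephb2 stood above all others, whereas for Aldh3a1 they lay between shH4 and shControl. Ccn3, a matricellular protein, followed the pattern of Ephb2, at 139.9, 103 and 123 in shH4, 194, 255 and 211 in shH6 and 84.05, 77.1 and 78.6 in shControl (0.85, SE 0.13, limma adjusted p = 0.000529).

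Ace, the angiotensin-converting enzyme, and Gcnt1, which builds core 2 branches on O-glycans, followed the pattern of Aldh3a1. Ace was at 125, 127 and 113 in shH4, 194, 214 and 227 in shH6 and 244, 256 and 286 in shControl (0.79, SE 0.096, limma adjusted p = 7.96e-05). Gcnt1 was at 314, 297 and 290.5 in shH4, 457, 545 and 469 in shH6 and 733, 651 and 681 in shControl (0.70, SE 0.074, limma adjusted p = 2.09e-05). Gm47015, a predicted gene, was at 1384, 1287 and 1399 in shH4 and 2235, 2180.4 and 1983 in shH6, both above shControl at 729.8, 728 and 630.3 (0.65, SE 0.061, limma adjusted p = 6.95e-06). Kcnt1, a sodium-activated potassium channel, was 1.87-fold higher, at 50.3, 31.9 and 64.5 in shH4 and 87.2, 86.04 and 93.5 in shH6. Syt12, a synaptotagmin, was 1.53-fold higher and Zbtb7c, a BTB zinc finger gene, 1.49-fold higher. Thbs3 (a thrombospondin), Selenbp1 and Cpt1c were 1.69, 1.54 and 1.49-fold higher, and each of these 3 lost its call when certain single libraries were left out. The adjusted p-value was then at most 0.0832 for Thbs3 (without shH6 replicate 3), 0.0733 for Selenbp1 (without shH4 replicate 1) and 0.0648 for Cpt1c (without shH4 replicate 3).

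**Figure D2:**
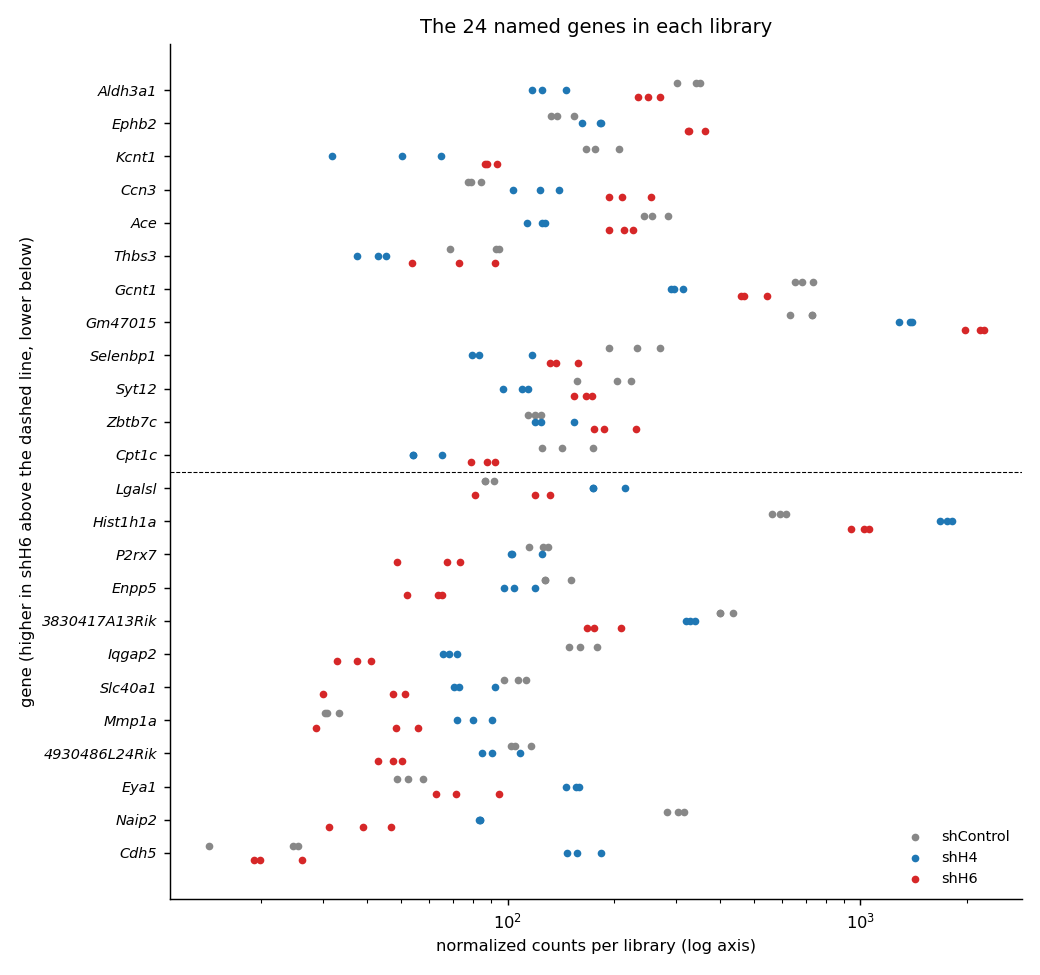
Normalized counts (horizontal log axis) of the 12 named genes with the largest difference in each direction, 1 point per library, with shControl in grey, shH4 in blue and shH6 in red. No gene has overlapping shH4 and shH6 points, and Cdh5 spans the widest gap, from a mean of 21.7 in shH6 to 163 in shH4.

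Several low-level genes of endothelial and developmental identity were higher in the shH4 line. Besides Cdh5, the endothelial adhesion gene Pecam1 was at 25.6, 27.5 and 24.4 in shH4, 6.88, 9.44 and 4.99 in shH6 and 6.15, 5.93 and 2.22 in shControl (−1.76, SE 0.37, limma adjusted p = 0.00599). Of 18 endothelial markers 4 were listed, and the other two were not called, with Eng at 46.3, 58.2 and 42.1 against 39.01, 36.7 and 37.4 and Egfl7 at 611, 668 and 643 against 609, 625 and 615. The summed level of the 4 was 830.8 to 911 in shH4 and 674 to 692 in shH6, and it was highest in shControl, at 989 to 1119, and most of it came from Egfl7. In bulk RNA, more cells of a type and more RNA per cell cannot be told apart. Other cell type markers were sparse in the table: 3 of 15 myeloid markers (Cd68, Cd14 and Itgb2) summed to 2765 to 2920.3 in shH4 and 3209.7 to 3422 in shH6, of which Itgb2 was called higher while Cd68 (−0.072) and Cd14 (−0.16) were below 0 without a call, 1 of the fibroblast and pericyte markers (Pdgfra) was at 119 to 162 and 128 to 157, and none of 11 lymphocyte markers was listed. The markers outside the table were not analysed here, and the part of other cells in these differences was not tested.

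Developmental transcription factors were called in 6 of 30 listed members, 4 lower and 2 higher in shH6, which is 20% called against 8.26% over all listed genes, with a median of −0.033 over the list against −0.005 over all listed genes. Sall1, a zinc finger factor of kidney development, was at 28.6, 25.3 and 31.3 in shH4, 6.88, 8.39 and 7.48 in shH6 and 7.52, 4.74 and 5.54 in shControl (−1.77, SE 0.30, limma adjusted p = 0.00119). The homeobox gene Hoxb7 was at 31.5, 29.7 and 34.2 in shH4, 15.3, 14.7 and 12.5 in shH6 and 10.9, 9.48 and 12.2 in shControl (−1.12, SE 0.24, limma adjusted p = 0.00736). Sall1, Hoxb7 and Eya1 were called lower in each of the 18 alternatives. For these 3, as for Cdh5 and Pecam1, shH4 was the line farther above shControl: the log2 differences from shControl were 2.10 in shH4 and 0.32 in shH6 for Sall1, 1.47 and 0.35 for Hoxb7, and 2.31 and 0.54 for Pecam1. Gata2, named after its values were seen, was lower as well, at 854, 875 and 875 against 659, 679 and 787. Of the 2 that were higher, Twist1, a factor known from epithelial-to-mesenchymal transition, was at 303, 296 and 259 in shH4 and 361, 397 and 388 in shH6 (0.42, SE 0.075, limma adjusted p = 0.00208), and Six4, a partner of EYA proteins, was at 713, 719 and 675 against 842, 795 and 834 (0.23).

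The mammary identity genes were split between the lines. Of 9 listed luminal and basal genes 6 were called (66.7%, against 8.26% over all listed genes), 3 higher and 3 lower in shH6, and in all 6 the shH4 mean was the one farther from shControl. The luminal keratins Krt8 and Krt18 were higher in shH6: Krt18 was at 9733, 10274 and 9995 in shH4 and 12108, 12453 and 11081 in shH6 (0.25, SE 0.044, limma adjusted p = 0.00209), and Krt8 was at 12653, 13589 and 12709.6 against 14766, 15420.3 and 13714 (0.17). Areg, the epidermal growth factor receptor ligand amphiregulin, was at 654, 612 and 620.0 against 876, 864 and 709.5 (0.37, SE 0.068, limma adjusted p = 0.0026). Its shH6 replicate 3 lay closest to shH4. Lower in shH6 were Cd24a, a surface glycoprotein used to sort mammary epithelium, at 547, 534 and 497 against 382, 391 and 347 (−0.49, SE 0.078, limma adjusted p = 0.000754), and the laminin and collagen receptors Itga6 and Itga2. Itga6 was at 7538, 7390.3 and 7600.4 in shH4 and 6295, 6152 and 6015 in shH6 (−0.29, SE 0.032, limma adjusted p = 3.76e-05), and Itga2 at 565, 590.2 and 581 against 477, 497 and 458 (−0.28). Of the mammary epithelial markers 3 of 14 were listed (Krt8, Krt18 and Ddr1), which summed to 23444 to 25079 in shH4 and 25952 to 29002 in shH6. The keratin list held 4 genes, of which these 2 were called (50%), with a list median of 0.204 that was 0.022 without shH4 replicate 1. Krt8 lost its call in 4 of the 18 alternatives, each without a single KD library.

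Among genes of adhesion and matrix, 9 of 29 listed extracellular matrix members were called, 4 higher and 5 lower in shH6 (31%, against 8.26% over all listed genes), with a list median of −0.042. Higher were Ccn3, Thbs3 and Npnt, an integrin ligand of basement membranes (199, 215 and 238 against 263, 262 and 282, 0.31). The fourth, Spp1 (osteopontin), was named after its values were seen, at 9902, 10123 and 10384 in shH4 and 13105, 12967 and 11475 in shH6 (0.30, SE 0.047, limma adjusted p = 0.000702). Among those lower were Col4a5, a type IV collagen chain, at 2222, 2165 and 2439 against 1850.4, 1882 and 1749.5 (−0.32, SE 0.047, limma adjusted p = 0.000473), and the tenascin gene Tnxb (−0.35). Of 18 integrin and focal adhesion genes 3 were called (16.7%). Itgb2, the beta chain of leukocyte integrins, was higher, at 2165, 2234 and 2276 against 2833, 2744 and 2665 (0.30), and Itga6 and Itga2 were lower. Of 18 cadherin and junction genes 4 were called (22.2%) and all 4 were lower, among them Cdh5, Pcdh12 (−0.42) and, named after its values were seen, Cgnl1 (−0.12). The number called lower ran from 1 to 4 over the alternatives, and of the 4 Cdh5 alone was called in every one. Of 27 listed actin genes 3 were called, 11.1% against 8.26% over all listed genes, and the list median was 0.007. The 3 were higher in shH6. These were the bundling proteins Fscn1 and Lcp1 and the membrane linker Ezr. Fscn1 was at 8.87, 14.3 and 9.78 in shH4, 34.4, 28.3 and 31.2 in shH6 and 76.5, 97.2 and 96.4 in shControl (1.45, SE 0.21, limma adjusted p = 0.000368), Lcp1 at 781, 769 and 812 against 1108, 1042 and 938 (0.38), and Ezr at 4704, 4938 and 4908 against 5814, 5795 and 5468 (0.23). All 3 were lowest in shH4 and were called in every alternative.

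Signalling lists held called genes in both directions. In the NOTCH list 2 of 14 genes were called (14.3%, against 8.26% over all listed genes), both higher: the receptor gene Notch1, at 548, 674 and 625 in shH4 and 881, 815 and 1061 in shH6 (0.57, SE 0.088, limma adjusted p = 0.000622), and the ligand gene Jag2, at 1464, 1683 and 1595 against 1882, 1874 and 1877 (0.25, SE 0.051, limma adjusted p = 0.0052). In the WNT list 4 of 14 were called (28.6%), with a median of −0.013. The receptor gene Fzd4 (111, 101 and 149.6 against 78.03, 68.2 and 71.1, −0.71) and the ligand gene Wnt7b (−0.19) were lower, while Lgr6, an R-spondin receptor (229.6, 232 and 212 against 313, 339 and 327, 0.54), and the transducer Dvl1 (0.27) were higher. In the TGF-beta and BMP list 3 of 14 were called (21.4%): the ligand gene Tgfb3 was lower, at 1281, 1255 and 1429.8 against 1022, 1021 and 976 (−0.39, SE 0.051, limma adjusted p = 0.000141), as was the receptor gene Acvr1b (−0.23, called in 6 of the 18 alternatives), and the activin subunit gene Inhbb was higher but its libraries overlapped. Ephb2 was called among 4 Eph and ephrin genes, and none of 12 guidance cue genes was called by limma, in the fit reported or in any alternative, nor had any an unadjusted p-value under 0.05. Of 21 growth factor and receptor kinase genes 2 were called (9.52%), of which Areg was higher and Bdnf, a neurotrophin gene, was lower (293, 306 and 288 against 227, 198 and 217, −0.46). Of 22 MAPK feedback genes (9.09% called), Areg and the ERK phosphatase gene Dusp5 (462, 452 and 452 against 530.0, 590.4 and 627, 0.35) were higher. Of 12 targets of the growth regulators YAP and TAZ, 3 were called and all were lower, namely Gadd45a (−0.38), Nt5e (−0.37) and Amotl2 (−0.20). That is 25% called against 8.26% over all listed genes. The list median was −0.098, it was −0.035 without shH4 replicate 3, and the medians of the single libraries overlapped between the lines. Gadd45a alone of these was called in every alternative.

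The cholesterol list had the highest median of the lists with 10 or more listed genes, at 0.13 on the log2 scale, with 13 of 18 members above 0. Of the 18, 5 were called higher and 1 lower, which is 33.3% called against 8.26% over all listed genes. The 3 with the largest difference among those called code for enzymes of the mevalonate and sterol pathway. Fdps was at 989.8, 1056 and 1092 in shH4 and 1347, 1286 and 1197 in shH6 (0.29, SE 0.052, limma adjusted p = 0.00221), Cyp51 at 597, 625 and 606 against 733, 698 and 733 (0.24, SE 0.053, limma adjusted p = 0.00777), and Msmo1 at 471, 437 and 437 against 588, 578 and 483 (0.29, SE 0.072, limma adjusted p = 0.019). Hmgcs1, the synthase at the head of the pathway, which was named after its values were seen, was at 1005, 981 and 1043 against 1267, 1106 and 1177 (0.23). Abcg1, a sterol exporter, was lower, at 1168, 1263 and 1222 against 1062, 1127 and 995 (−0.20). The 4 enzyme genes were above both lines in shControl, so that shH6 stood between. The number called higher in this list ran from 3 to 8 over the alternatives, and Fdps and Cyp51 were called in each of them. The list medians of the single shH6 libraries, relative to the mean of the 6 KD libraries, lay between 0.014 and 0.074 and those of the shH4 libraries between −0.074 and −0.039, without overlap.

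**Figure D3:**
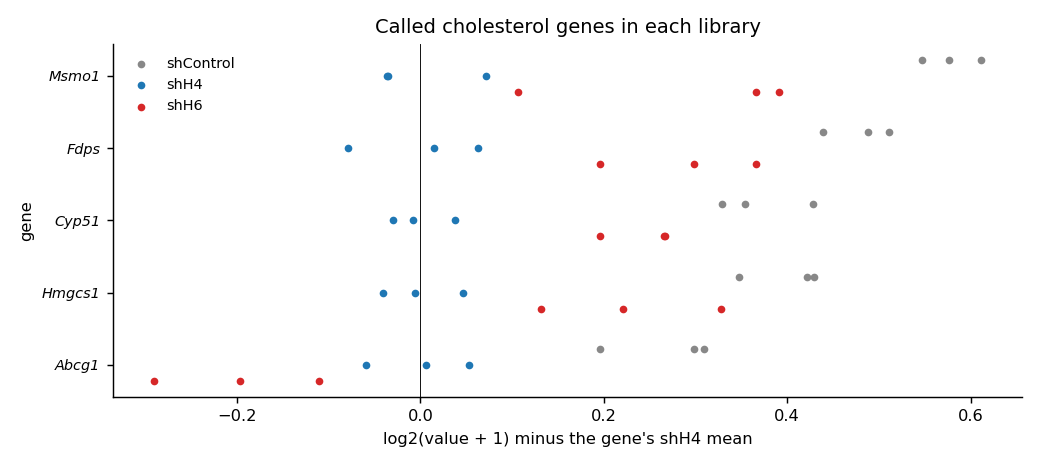
The 5 called cholesterol genes described above in each library, as log2(value + 1) minus the mean of that gene in shH4 (horizontal axis), with shControl in grey, shH4 in blue and shH6 in red. Fdps, Cyp51, Msmo1 and Hmgcs1 have their shH6 points between the shH4 and the shControl points.

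Of 17 genes of fatty acid and lipid metabolism, 3 were called higher and 1 lower (23.5% called, against 8.26% over all listed genes). The median was 0.055, but 0.024 without shH4 replicate 1 and 0.083 without shH4 replicate 2. Fads2, a fatty acid desaturase, was at 133, 147 and 157 in shH4 and 233, 222 and 191 in shH6 (0.56, SE 0.12, limma adjusted p = 0.00798). Fabp5, a fatty acid binding protein, was at 178, 177 and 180.3 against 221, 242 and 233 (0.37), and Cpt1c was given above. Lpl, the lipoprotein lipase, was lower, at 1396, 1369 and 1253 against 1098, 1180.4 and 1182 (−0.21).

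Immune genes were called in both directions. Of 35 cytokine, chemokine and receptor genes 7 were called (20%, against 8.26% over all listed genes), 2 higher and 5 lower, with a list median of 0.003. Il2rg, the common gamma chain of interleukin receptors, was at 399, 377 and 385 in shH4 and 266, 281 and 244 in shH6 (−0.55, SE 0.07, limma adjusted p = 0.000113), Tnfsf4, the OX40 ligand, at 571, 551 and 509 against 390.1, 386 and 352 (−0.53, SE 0.074, limma adjusted p = 0.000304), and the death receptor gene Tnfrsf21 at 298, 309.9 and 261 against 203, 232 and 209 (−0.43). Tnfsf4 was lowest in shControl (243, 276 and 261) and Il2rg was highest there (522, 532 and 564). Of the genes higher in shH6, Il12rb1 was at 275, 281 and 300.2 against 370.2, 438 and 383 (0.47) and Il4ra at 1095, 1113 and 1097 against 1303, 1264 and 1213 (0.19). Of 35 interferon-stimulated genes 7 were called as well, with a list median of −0.03 and with Isg15 (0.33), Herc6 (0.25) and Oas3 (0.23) among 4 that were higher and Ifi44 (−1.27), Tap1 (−0.51) and Lgals3bp (−0.36) as the 3 that were lower. Lgals3bp, a secreted glycoprotein, was at 2299, 2429.9 and 2264 in shH4 and 1853, 1779 and 1816 in shH6 (SE 0.04, limma adjusted p = 3.62e-05), and Tap1, the peptide transporter of MHC class I, at 236, 253 and 240.1 against 204, 151 and 160.1 (SE 0.11, limma adjusted p = 0.00559). Between 0 and 5 interferon genes were called higher over the alternatives, and none of the 4 was called in all of them, while Lgals3bp and Tap1 were. Of 13 MHC and antigen presentation genes (23.1% called), Tap1 and the trimming peptidase gene Erap1 (−0.18) were lower and H2-D1 was higher (0.13); H2-D1 has near-identical copies that could share its reads.

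Stress response genes were likewise divided. Of 36 genes of the amino acid and integrated stress response, 4 were called higher and 4 lower (22.2% called, against 8.26% over all listed genes). Ddit4, an inhibitor of mTORC1, was at 531, 564 and 579 in shH4 and 722, 792 and 708 in shH6 (0.41, SE 0.06, limma adjusted p = 0.000441), and Ndrg1, a hypoxia-responsive gene, at 952, 994 and 958 against 1202, 1245 and 1097 (0.29, SE 0.05, limma adjusted p = 0.00168). The amino acid transporter gene Slc1a4 was higher (0.17), and Gadd45a, the proline synthesis gene Pycr1 (−0.35, called in only 7 of the 18 alternatives) and Vldlr (−0.18) were lower. Atf4 itself, the factor at the centre of this response, named after its values were seen, was at 4378, 4364 and 4132 against 4646, 5021 and 4626 (0.15, SE 0.038, limma adjusted p = 0.0208). Ddit4 and Ndrg1 were also the 2 of 24 glycolysis and hypoxia genes (12.5% called) that were higher, beside the MYC antagonist gene Mxi1, which was lower (1339, 1419 and 1364 against 1139.5, 1187 and 1192, −0.23). Of 23 listed p53 targets 3 were called (13%), with a list median of −0.029 against −0.005. All 3 were lower in shH6, and shH6 was in each the line farther from shControl. These were Gadd45a, at 187, 213 and 206 against 152, 162 and 151, Ccng1, at 5250.0, 5224 and 4913 against 4388, 4816 and 4337 (−0.19), and the p53 ligase gene Mdm2, at 3081, 2977 and 2976 against 2676, 2766 and 2639 (−0.16, SE 0.035, limma adjusted p = 0.00765). Of 34 chaperone and ER stress genes (5.88% called), Hspb1 was higher (0.39) and Edem1, which directs misfolded glycoproteins to degradation, lower (5004, 5035 and 4946 against 4293, 4219 and 4136, −0.24, SE 0.034, limma adjusted p = 0.000289). Of 27 xenobiotic and redox genes (11.1% called), Aldh3a1 and Akr1b3 (0.15) were higher and Gstp1 was lower (−0.15).

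In the lysosome and autophagy list 6 of 59 listed members were called lower in shH6 and 1 higher, 11.9% in all against 8.26% over all listed genes. In this list 41 members were below 0 (52.1% of all listed genes were), with a median of −0.037, and the library medians of the lines overlapped (0.001 to 0.033 in shH4, −0.049 to 0.008 in shH6). Ctsd, the aspartic protease cathepsin D, was at 10683, 11324 and 10776 in shH4 and 9294, 9748 and 9221 in shH6 (−0.21, SE 0.036, limma adjusted p = 0.00121). Tpp1, a tripeptidyl peptidase, was at 1157, 1229.8 and 1104 against 951, 958 and 996 (−0.26, SE 0.05, limma adjusted p = 0.00317), and Smpd1, acid sphingomyelinase, was lower by 0.19 but was called in only 5 of the 18 alternatives. All 3 were highest in shControl. Laptm4b was higher (1079, 1049 and 1078 against 1225, 1264 and 1188, 0.20). The number called lower ran from 2 to 7 over the alternatives, with Ctsd and Tpp1 in all of them. Of 76 solute carrier genes 3 were called higher, namely Slc7a4 (0.70), the zinc exporter gene Slc30a1 (0.31) and Slc1a4, and 5 lower, led by Slc40a1, Slc25a33 (−0.23) and Slc15a2 (−0.18). The share called, 10.5%, was near that over all listed genes. Of these 8 calls Slc40a1 alone was kept in every alternative. Of 26 ion channel genes (7.69% called) Kcnt1 was higher and P2rx7 lower.

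Among silencing genes, 2 of 20 listed members of the SETDB1, HUSH and H3K9 list were called, Resf1 itself and Fam208b, a paralog of a HUSH subunit gene, at 2520.4, 2432 and 2542 in shH4 and 2707, 2696 and 2877 in shH6 (0.14, SE 0.038, limma adjusted p = 0.0256). The share called was 10%, against 8.26% over all listed genes, and the list median was 0.002. Of 9 small RNA machinery genes (22.2% called), Tarbp2, a Dicer partner, was higher (519.8, 521 and 510.5 against 637, 594 and 597, 0.24) and Tnrc6a, a GW182 protein gene, lower (3876, 3943 and 4015 against 3432, 3405 and 3772, −0.16), neither in every alternative. Of 96 zinc finger genes 4 were higher and 3 lower (7.29% called). Zbtb7c, Zfp422 (0.30) and Zfp451 (0.21) led the former, and Zfp37 (299.6, 278 and 284 against 212, 196 and 191, −0.52, SE 0.081, limma adjusted p = 0.000659), Zfp704 (−0.33) and Zfp984 (−0.27) were the latter.

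Of 74 DNA replication and repair genes 50 were above 0, with a median of 0.043, against 47.9% above 0 over all listed genes. The share called was near that of all genes (9.46% against 8.26%), with 4 higher and 3 lower. Without shH4 replicate 3 the median was 0.026, and 2 were called higher without shH4 replicate 3, shH6 replicate 1 or shH6 replicate 2. E2f2, an S-phase transcription factor, was at 680.0, 724 and 731 in shH4 and 895, 826 and 867 in shH6 (0.28, SE 0.055, limma adjusted p = 0.0045). Tk1, thymidine kinase, was at 3634, 3736 and 3477 against 4081, 4233 and 4231 (0.21, SE 0.04, limma adjusted p = 0.00344), and the origin recognition gene Orc1 was higher by 0.23 but was called in only 9 of the 18 alternatives. Polh, the translesion polymerase eta, was lower, at 1189.5, 1212 and 1267 against 954, 962 and 930.3 (−0.37, SE 0.044, limma adjusted p = 7.27e-05), as were Pole4 (−0.20) and Pole3 (−0.16). Of 56 mitosis and cyclin genes 3 were called (5.36%, below the share over all listed genes) and all were higher, namely Mybl2, a cell cycle transcription factor (964, 1035 and 982 against 1209, 1213 and 1389.8, 0.35), the separase gene Espl1 (1490.1, 1594 and 1567 against 1925, 1764 and 1940.3, 0.27) and the condensin gene Ncapg2 (0.13, called in 9 of the 18 alternatives). All 3 were farther from shControl in shH6.

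Replication-dependent histone genes other than Hist1h1a mostly lay above 0. Of 52 listed, 44 were above 0 and 5 were called (9.62%, near the 8.26% over all listed genes). The median was 0.071, but 0.037 without shH4 replicate 3 and 0.124 without shH4 replicate 2, and the library medians of the lines overlapped. Of the 3 called higher, Hist1h2ap was at 7656, 8756 and 7533 in shH4 and 9038, 9619 and 9681 in shH6 (0.25, SE 0.058, limma adjusted p = 0.0127), and the others were Hist1h4m (0.15) and Hist1h3b (0.15). The 2 called lower were Hist1h1a and Hist1h3a (−0.23). The number called higher ran from 0 (without shH4 replicate 3) to 15 (without shH4 replicate 2) over the alternatives, and Hist1h1a was called lower in each. The core histone genes are near-identical copies whose reads could have been split between them.

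Housekeeping lists showed few calls, below the 8.26% over all listed genes. None of 26 respiratory chain genes and none of 16 mitochondrial ribosomal protein genes was called by limma, 4 and 2 of them had an unadjusted p-value under 0.05, and over the 18 alternatives at most 1 in each list was called. Of 61 cytosolic ribosomal protein genes 1 was called, Rpl22l1, a paralog of Rpl22, at 1565, 1494 and 1501 in shH4 and 1326, 1325 and 1245 in shH6 (−0.23, SE 0.045, limma adjusted p = 0.00428). It was lowest in shControl, at 1085, 1150.1 and 1119. In the cytosolic ribosomal list 48 members were below 0 (52.1% of all listed genes were), with a median of −0.039. The library medians were −0.001, 0.019 and −0.071 in shH6 and 0.002 to 0.024 in shH4, and these ranges overlapped. The lowest was that of shH6 replicate 3. Rpl22 was at 5618, 5542 and 5679.8 in shH4 and 5735, 5778 and 5327 in shH6, against 8359, 7829.8 and 7847 in shControl, and the 95% interval of the difference between the lines ran from −0.082 to 0.08 on the log2 scale. Of 70 ribosome biogenesis genes 3 were called lower (Polr1d, Exosc10 and Rrp1b, from −0.20 to −0.15). Of 92 splicing genes 2 were higher (Lsm4, 0.23, and Hnrnpdl, 0.12) and 1 lower (Hnrnph2, −0.15). Of 61 proteasome and ubiquitin genes Psmd1 was higher (0.15) and Psma3 lower (−0.16), and of 43 translation factor and tRNA synthetase genes Eif6 (0.17) and Lars2 were higher.

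**Figure D4:**
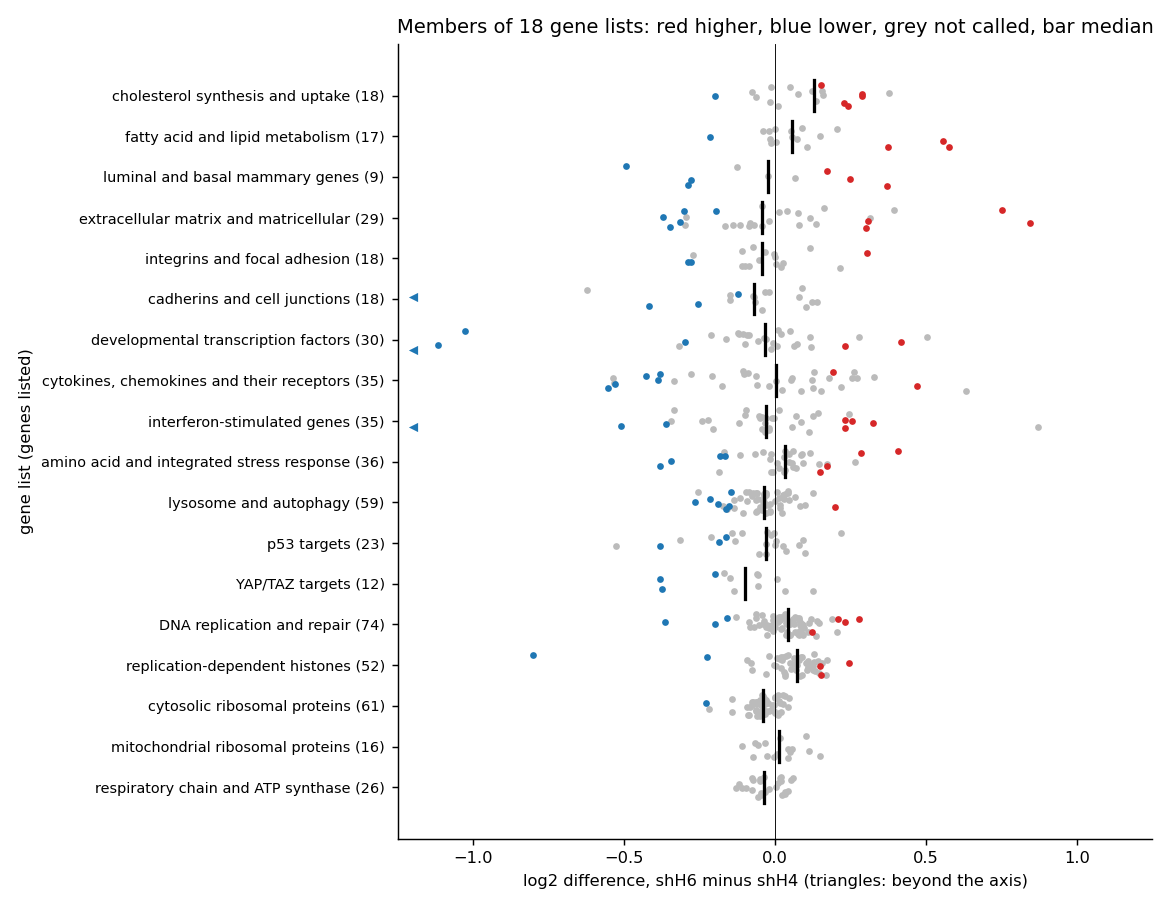
Log2 difference between shH6 and shH4 (horizontal axis) of every listed member of 18 gene lists, 1 point per gene, with members called higher in red, called lower in blue and not called in grey, and the list median as a black bar. Medians run from −0.098 in the YAP/TAZ targets to 0.13 in the cholesterol list, and triangles mark Cdh5, Sall1 and Ifi44 beyond the axis.

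Lars2, the mitochondrial leucyl-tRNA synthetase gene, had the largest difference above 0, and its libraries overlapped. It was at 569, 699 and 4335 normalized counts in shH4 and 3564, 3005 and 5203 in shH6, with shControl at 580.1, 375 and 713 (1.67, SE 0.49, limma adjusted p = 0.0429). A single shH4 library, replicate 3, lay in the shH6 range. Without it the log2 difference was 2.597 (limma adjusted p = 1.83e-05), and without shH4 replicate 1 it was 1.133 (limma adjusted p = 0.226). Lars2 was called in 11 of the 18 alternatives, and the call was also lost without shH4 replicate 2 or any single shH6 library. With the replicate block it was kept (limma adjusted p = 0.00372). The other called genes with overlapping libraries were Inhbb (13.8, 21.98 and 32.3 against 31.4, 64.01 and 43.6), Castor1 (119, 101 and 99.8 against 158, 157 and 116) and Gm16170 (9.86, 3.35 and 3.04 against 9.12, 13.5 and 19.95), named after their values were seen.

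Genes in either direction were found on both sides of shControl. Of the 206 genes higher in shH6, shControl was above both lines in 133 and below both in 73, and of the 232 lower genes it was above both in 150 and below both in 82. The shH6 mean was the one farther from shControl in 223 called genes (50.9%) and in 53.8% of all listed genes. No called gene had shControl between the lines, so direction and side together fix which line was farther. Resf1 itself was farther from shControl in shH4. In the 12 lists with at least 5 called genes, shH4 was the farther line for 6 of 6 called luminal and basal genes, 5 of 6 developmental factors, 4 of 6 cholesterol genes, 5 of 9 matrix genes, 4 of 7 interferon genes, 4 of 8 genes each of the amino acid response and the solute carriers, 3 of 7 cytokine genes, 2 of 5 histone genes, 2 of 7 genes each of replication and zinc fingers, and 1 of 7 lysosome genes. These are counts of called genes, and the difference between lists was not tested.

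Seed matches were counted to see whether genes with a site for either guide differed. A 3′ UTR match to the 7 bases that pair with the H4 seed, without an H6 seed match, was annotated for 70 listed genes, of which 4 (5.71%) were called higher in shH6 and 3 (4.29%) lower. An H6 seed match alone was annotated for 516 genes, of which 17 (3.29%) were called higher and 29 (5.62%) lower. Over the 4646 listed genes with an annotated 3′ UTR these shares were 4.15% and 4.76%. The median difference was −0.0026 for the H4 seed, −0.0034 for the H6 seed and −0.0056 over all of these genes. The 3′ UTRs with an H6 seed match were longer than the average, with a median of 2696 bases against 1392. A match is a property of the annotated sequence and no sign that the guide bound there. All listed genes lay on the same side of shControl in both lines. A gene lowered in a single line could therefore be missing from the table, so these counts cannot decide whether seed matches mattered.

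The lines also differed along a stretch of chromosome 4. The last 20 listed genes of chromosome 4 in GENCODE M21 gene order, from Nadk to Noc2l, were chosen after their values were seen. Of these, 19 were above 0, 7 were called higher in shH6 and 0 lower, and the median was 0.148 on the log2 scale. None of the 4873 windows of 20 consecutive listed genes had a higher median, and the overlapping windows that start at Gnb1 and at Prkcz had the same. The central 95% of the windows lay between −0.056 and 0.049. The 7 genes were Ssu72 (0.32), Ccnl2 (0.16), Mxra8 (0.29), Dvl1 (0.27), Ints11 (0.21), Isg15 (0.33) and Plekhn1 (0.35), so that Dvl1 of the WNT list and Isg15 of the interferon list belong to this stretch. Mxra8, a cell surface protein gene, was at 1337, 1517 and 1439.6 in shH4, 1684, 1803 and 1746 in shH6 and 2503, 2303 and 2380.4 in shControl (SE 0.049, limma adjusted p = 0.0015), and Ints11, the endonuclease of the Integrator complex, at 1955, 2074 and 2033 in shH4, 2387, 2384 and 2265 in shH6 and 2931, 2832 and 2957 in shControl (SE 0.039, limma adjusted p = 0.00227). In both genes shH6 stood between the other groups. Fewer copies of a gene and less RNA per copy cannot be told apart in these values. That holds for this stretch, for the 20 listed genes before it, which include Rpl22 and Megf6, and for genes of either named elsewhere.

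All 20 of these genes were below shControl in both lines, as were all 20 that precede them, against 48.8% of all listed genes. The median difference from shControl of the last 20 was −0.537 in shH4 and −0.358 in shH6. In the 20 before, which include Rpl22, it was −0.483 and −0.446, and there 1 gene, Megf6 (52.2, 74.7 and 71.4 against 93.3, 92.3 and 105, 0.56), was called higher in shH6 and the median between the lines was 0.048. Farther from the end, 65.0% of the genes at places 41 to 60 were below shControl in both lines. Relative to the shH4 mean, the median of the last 20 genes was 0.125, 0.198 and 0.09 in the 3 shH6 libraries and lay between −0.046 and 0.037 in the shH4 libraries, which describes the difference by which the stretch was chosen and is no separate support for it. By whole chromosome, leaving out those with fewer than 5 listed genes, the share of listed genes called ran from 1.85% on chromosome 14 (3 of 162) to 14.55% on chromosome 1 (47 of 323), against 8.26% over all listed genes. On the X chromosome 16 of 157 listed genes were called (10.19%), of which 14 were lower in shH6, against 232 of the 438 called genes in all.

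**Figure D5:**
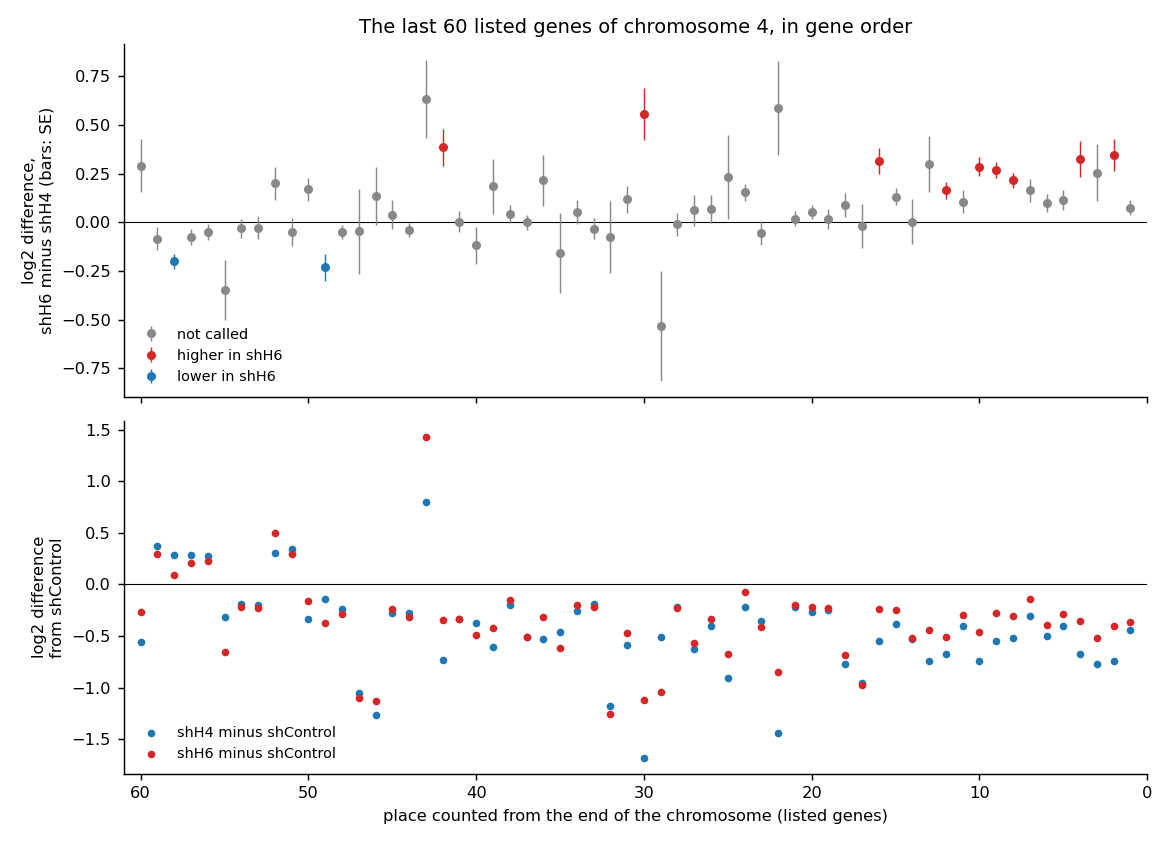
The last 60 listed genes of chromosome 4 in gene order, counted from the chromosome end (horizontal axis). The upper panel gives the log2 difference between shH6 and shH4 with its SE (red, called higher; blue, called lower; grey, not called) and the lower panel the log2 difference of each line from shControl. In the last 20 places 19 points of the upper panel lie above 0, and in the last 40 places every point of the lower panel lies below 0.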

How the data were processed

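Total RNA of 9 6DT1 cultures (shControl, shH4 and shH6, 3 each) was sequenced after TruSeq stranded library preparation. The submitters' processing notes name STAR 2.7.8a, Partek, DESeq2 and the mm39 build; the counting step, its use of strand and the annotation are not given in the sources used here. The deposited values are a signal per gene, estimated reads divided by a size factor per library by the authors (median ratio). Below 150, between 74.8% and 78.5% of a library's values were whole multiples of 1 read (tolerance 0.05), so whole reads were not recovered and no count test was run. Depth is known for the listed genes only. All 9 value columns were used and no row was dropped.

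The test was limma 3.58.1 (R 4.3.3) on log2(value + 1), with a mean per group over all 9 libraries, empirical Bayes with trend, two-sided, contrast shH6 minus shH4, Benjamini-Hochberg adjustment over 5301 genes, threshold 0.05, no filter on low values. Normalized count below means the deposited value. Fold changes are on the log2(value + 1) scale, which understates those of low genes. Levels of different genes are not comparable, since they are not per length. On simulated libraries with 200 changed genes, 94% were recovered at a log2 change of 0.5 and 99% at 1, with 2.53% false calls. Smaller changes, such as the median of 0.265 over called genes, were not simulated, and the same spread was added to every library. Pairs of replicates differed beyond sampling noise (chi-square per gene 2.52 to 7.47), so none was a copy.

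Members, the 41 functional lists and 5 marker lists were chosen with earlier results of these data known; lists were described by counts and medians and not tested. Named were the 12 genes highest and 12 lowest in shH6 (adjusted p-value under 0.05, libraries apart, mean of at least 50 in the KD libraries), up to 3 called genes per list and direction, Resf1, Setdb1, Myc, Rpl22 and the listed markers; others are marked, and some members are not reported here. Symbols (5258 of 5301 identifiers), gene order and hairpin sites came from GENCODE M21 (GRCm38) and no deposited coordinates were used. No batch label was given. Alternatives were pseudocounts of 0.5 and 5, a mean of at least 10, the 6 KD libraries alone, 2 scalings, library weights, a block for the replicate number, each library left out in turn and, chosen after seeing the data, column totals without the identifier with the highest values.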

Additional observations from a re-analysis of the deposited data

How the results depend on the processing

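The count of called genes stayed within 1.5 times of 438 with either pseudocount, the filter, the 6 KD libraries alone (378) and each scaling (425 to 454), and the median difference over all genes lay between −0.0091 and 0.0099 in every setting. With library weights 684 genes were called, 329 higher and 355 lower, 415 of them among the 438. Leaving out a library gave 287 to 422 genes, 123 to 210 higher and 151 to 222 lower; the count was more than 1.5 times lower without shH6 replicate 1 (287) and without shH4 replicate 1 (290), and 297 without shH4 replicate 3. The numbers of the replicates gave no clear pairing of the samples. Deviations of libraries with the same number correlated at 0.0669, 0.0184 and 0.038, and those with different numbers at −0.0598 to 0.0202. All of these correlations were weak, and shH4 replicate 2 correlated best with shH6 replicate 3 (0.0202). With the replicate block 405 genes were called, 194 higher and 211 lower.

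For the 24 genes with the widest differences, Setdb1, Myc and Rpl22, 463 of 486 values kept their direction and side of the threshold. Thbs3, Selenbp1, Cpt1c and Mmp1a lost their call in 11 fits without a library. Of the 132 called genes that the naming rule gives, members of lists included, 75 were called in every alternative and 10 in at most 9 of 18: Smpd1, Zfp984, Slc25a33 and Slc15a2 in 5, Acvr1b in 6, Pycr1 and Psma3 in 7, and Orc1, Ncapg2 and Slc7a4 in 9. Genes near 0 that were called in no setting changed sign. Setdb1 was at 0.01 with equal column totals, 0.005 with equal upper quartiles and 0.0 with totals without the top identifier, and Rpl22 at 0.014, 0.009 and 0.004, and at 0.024 with library weights. Leaving out a library put Setdb1 between −0.021 and 0.014, Rpl22 between −0.022 and 0.036 and Myc between −0.019 and 0.098. Of 738 list medians, 706 moved by less than the spread between libraries; among others, the medians of NOTCH (−0.013 to 0.093), cytokine (−0.03 to 0.046) and luminal and basal genes (−0.083 to 0.052) took either sign when a library was left out. Those of cholesterol (0.086 to 0.139), developmental factors (−0.044 to −0.009), extracellular matrix (−0.071 to −0.012), p53 targets (−0.051 to −0.011) and lysosome (−0.047 to −0.023) varied in size. The causes were not tested. Low genes were measured less precisely: the median SE was 0.241 on the log2 scale for the 307 genes with a KD mean below 50, of which 25 were called, and 0.048 for the 3596 genes at 500 or more, of which 278 were called.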

Other observations

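Outside the lists and the named genes, several genes differed by more than 1.4-fold and were called in each of the 18 alternatives; they were picked after their values were seen. Lower in shH6 were Bmf, a pro-apoptotic BCL2 family member (55.2, 54.95 and 85.1 normalized counts in shH4 against 29.1, 36.7 and 28.7 in shH6, limma adjusted p = 0.00208), Vcam1, an adhesion molecule for leukocyte integrins (292, 255 and 284 against 192, 170.0 and 207, limma adjusted p = 0.00148), Arhgap45 (1617, 1761 and 1799.5 against 1197, 1235 and 1175, limma adjusted p = 6.95e-06) and Cfap69, a cilia and flagella gene (429.7, 418 and 402 against 265, 269 and 257, limma adjusted p = 5.53e-05). Higher in shH6 was Blnk, an adaptor of B cell receptor signalling (211, 177 and 196 against 267, 297 and 304, limma adjusted p = 0.00168). Vcam1 and Cfap69 were lowest in shControl, while Arhgap45 was highest there and the shControl libraries of Bmf (88.1, 81.8 and 80.9) overlapped those of shH4.

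Among genes with a mean under 50 in the KD libraries, those called in every alternative included Smpdl3a (19.7, 20.9 and 26.4 against 6.88, 8.39 and 6.24, with shControl at 4.78, 5.93 and 5.54), Mdfi (21.7, 26.4 and 37.2 against 9.18, 10.5 and 16.2) and Itih5 (36.5, 41.8 and 44.99 against 26.01, 17.8 and 21.2), all lower in shH6. Smpdl3a had the pattern of Cdh5, Pecam1 and Sall1, with shH4 above both other groups.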
